A study of Mus musculus with 12 samples.

Results

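Bdnf and 3 neurotrophin receptor genes, Ntrk2, Ntrk3 and Ngfr, were followed over 12 Affymetrix Mouse Gene ST arrays of mouse hippocampus, 1 array per mouse. The members were chosen by gene symbol in the platform annotation. Of 5 members, 4 were found there among 19938 genes with a probe set of their own, and Ntf3 was not analysed here. Each of the 4 genes had 1 probe set, so that no choice among probe sets was needed. On GRCm38.p6, Bdnf lies on chromosome 2 (109674700 to 109727043), Ntrk2 on chromosome 13 (58806472 to 59133970), Ntrk3 on chromosome 7 (78179986 to 78581034) and Ngfr on chromosome 11 (95568818 to 95587698). The annotation gave 11 RefSeq mRNA accessions for the Bdnf probe set, 3 for Ntrk2, 2 for Ntrk3 and 1 for Ngfr, and 1 value per gene does not tell these transcripts apart.

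The groups held 3 mice each. They were heterozygous (het) mice with 40 min of status epilepticus (SE) after 335 or 350 mg/kg pilocarpine, het controls without seizure, Srf mutants that got pilocarpine and had grade 4 seizures without SE, and Srf mutant controls. Mice of all groups had a C57/Bl6 background and an age of 7 to 10 weeks, carried the tamoxifen-inducible Cre CaMKCreERT2 and received tamoxifen. The Camk2a promoter directs this Cre to forebrain glutamatergic neurons, so that other cells of the mutants (Srf-/- after recombination) keep Srf. The het mice were heterozygous for Srf (Srf+/-) and are no wild type. Controls received Ringer solution. In the labels the het mice appear as control or wild-type and the mutants with pilocarpine as having seizures, and the groups are described here as in the study's methods. Srf mutants with SE were not analysed here. The mutants given pilocarpine therefore differed from the het SE mice in Srf and in the absence of SE, and these cannot be told apart. The harvest time of the mutants with pilocarpine is not given in the sources used here.

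Neurotrophins are secreted growth factors that are made as proneurotrophins and cleaved to their mature form. Mature BDNF binds the receptor tyrosine kinase TrkB, encoded by Ntrk2, which signals through the adaptors Shc and Frs2 and through phospholipase C gamma to the MAP kinase and PI3 kinase pathways. TrkC, encoded by Ntrk3, is the main receptor of neurotrophin-3, the product of Ntf3. The p75 receptor, encoded by Ngfr, binds all neurotrophins and, together with sortilin, their proforms. In the hippocampus, Bdnf is made by glutamatergic neurons, is transcribed from several alternative promoters upon neuronal activity, and is known for its role in synaptic plasticity and in epilepsy models.

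Array values were deposited as RMA values on a log2 scale, so that a difference of 1 is a 2-fold change. Medians of the 12 arrays lay between 6.78 and 6.86. Differences between groups were tested with limma over 23410 probe sets with a gene, and a change was called at a Benjamini-Hochberg adjusted p under 0.05. Srf, the deleted gene, read 8.80, 8.94 and 8.96 (log2) in mutant controls, against 9.59, 9.53 and 9.60 in het controls, a difference of -0.67 (SE of the fit 0.0523, adjusted p = 0.000263 from limma). How many of its probes lie in the deleted part is not given in the sources used here. Xist was above 9 on 0 of 3 arrays of het SE mice, 1 of 3 of het controls, 1 of 3 of mutants with pilocarpine and 2 of 3 of mutant controls, so that the sexes were mixed unevenly among the groups. Of 61 measured markers of hippocampal and neighbouring cell types in 13 lists, 2 were higher and 4 lower in het SE mice against het controls. Both shares were no higher than the 5.08% higher and 6.93% lower over all tested probe sets. In any other comparison 0 markers were called. Those called, named after their values were seen, were Sst (0.31) and Cspg4 (0.31) above and Pdgfrb (-0.48), Drd1 (-0.47), P2ry12 (-0.23) and Cx3cr1 (-0.19) below het controls (log2), and only Sst and Pdgfrb were called in 23 of 23 alternatives. The medians of their lists lay closer to 0, at 0.03 for 6 inhibitory neuron markers (-0.16 to 0.31), 0.14 for the oligodendrocyte precursor and -0.06 for the microglia markers, -0.02 for 4 pericyte markers (-0.48 to 0.28) and -0.01 for 4 markers of striatum and thalamus (-0.47 to 0.19). The largest shift of a list median was among 5 meninges markers, none called, with log2 differences of -0.56 to -0.28 in het SE mice (median -0.35). Their mean lay between 9.43 and 10.10 in het SE mice and between 10.09 and 10.41 in het controls, and between 9.92 and 10.69 in mutants with pilocarpine and between 9.67 and 10.50 in mutant controls. The 5 choroid plexus markers, none called, differed by -0.57 to -0.08 in het SE mice, with a mean of 6.84 to 7.19 against 7.08 to 7.50 in het controls, and a mean of 7.02 to 7.51 in mutants with pilocarpine and of 7.04 to 7.21 in mutant controls. The mean of 5 excitatory neuron markers lay between 12.50 and 12.58 (log2) in het SE mice and between 12.61 and 12.66 in het controls. It lay between 12.53 and 12.61 in mutants with pilocarpine and between 12.56 and 12.65 in mutant controls.

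Bdnf was the only 1 of the 4 genes whose change with SE in het mice was called. Its level was 9.21, 9.84 and 9.85 (log2) in het SE mice, against 7.88, 7.86 and 8.01 in het controls. All 3 SE arrays lay above all 3 control arrays, and replicate 1 of the SE group stood below the other 2 of its group. The mean was 9.63 ± 0.364 in het SE mice and 7.92 ± 0.0843 in het controls (SD, n = 3 each). Bdnf thus rose by a log2 fold change of 1.72 (95% interval 1.43 to 2.00), a 3.29-fold rise (adjusted p = 2.72e-06 from limma). Without replicate 1 of the SE group the difference was 1.93. Over all tested probe sets, 5.08% were called higher and 6.93% lower in this comparison, and of the 4 genes 1 was called higher and 0 lower. In bulk tissue, fewer cells of a type and less RNA per cell cannot be told apart. The split between higher and lower calls depended on scaling, with 42.3% of calls higher here and 51.9% after centring arrays on their medians. The means of the excitatory neuron and meninges markers given above were lower in het SE mice than in het controls, opposite to Bdnf. The 5 dentate granule cell markers, none called, differed by -0.15 to 0.32 in het SE mice. Their median of 0.18 lay in the direction of Bdnf, and it was 0.00 in mutants with pilocarpine. Their mean lay between 9.58 and 9.88 (log2) in het SE mice and between 9.57 and 9.75 in het controls. The part of the marker differences in the Bdnf values was not tested.

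**Figure D1:**
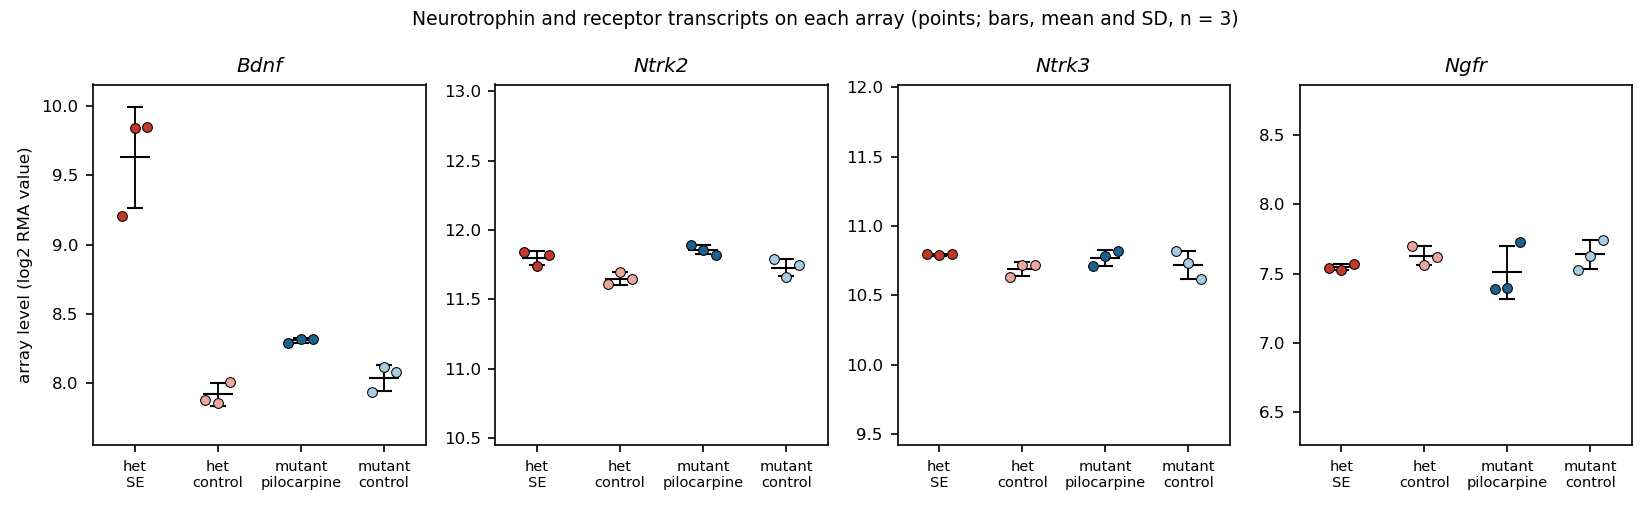
Level of Bdnf, Ntrk2, Ntrk3 and Ngfr on each array (y axis, log2 RMA value, each panel spanning the same number of log2 units) in het SE mice, het controls, mutants with pilocarpine and mutant controls. Points are arrays and bars the mean and SD of 3 mice. Bdnf lies between 9.21 and 9.85 in het SE mice and between 7.86 and 8.32 in the other groups, whereas each receptor stays within a narrow band.

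In Srf mutants given pilocarpine without SE, Bdnf had a level of 8.29, 8.32 and 8.32 (log2), against 7.94, 8.12 and 8.08 in mutant controls. These 3 arrays lay close together and above every control array of either genotype, and below every array of het SE mice. The share of all probe sets in such an order was not counted. The difference between the mutant groups was 0.27 (95% interval -0.02 to 0.55, adjusted p = 0.376 from limma), which did not pass the threshold. The fit uses a spread shared by all groups, and without replicate 1 of the het SE group the same difference of 0.27 passed the threshold (adjusted p = 0.0395 from limma). It did not pass in the other 22 of 23 alternatives, a fit of the mutant groups alone among them. Over all tested probe sets, 0.871% were called higher and 0.965% lower in the mutants with pilocarpine, and 0 of the 4 genes were called. Of these calls 47.4% were higher, against 54.2% after centring and 57.1% after another quantile normalization.

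The pilocarpine response of Bdnf in mutants was smaller than its SE response in het mice, with a difference between the responses of -1.45 on the log2 scale (95% interval -1.86 to -1.05, adjusted p = 0.000753 from limma). Without replicate 1 of the het SE group it was -1.66. In this test of the difference between responses 1.47% of probe sets were called higher and 2.12% lower, and of the 4 genes Bdnf was called lower and 0 were called higher. In mice without pilocarpine, Bdnf averaged 8.04 ± 0.0939 (log2) in mutant controls and 7.92 ± 0.0843 in het controls (SD, n = 3 each), and the arrays of both groups overlapped. The difference of 0.13 (95% interval -0.16 to 0.41, adjusted p = 0.842 from limma) did not pass the threshold. Between the control groups 0.0384% of probe sets were called higher and 0.0812% lower in mutants, and 0 of the 4 genes were called.

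Ntrk2, the TrkB gene, had a level of 11.84, 11.74 and 11.82 (log2) in het SE mice, against 11.61, 11.70 and 11.65 in het controls. The SE arrays lay above the control arrays, but by little. The difference was 0.15 (95% interval 0.04 to 0.25), or 1.11-fold, and its adjusted p of 0.0658 from limma did not pass the threshold. It did pass with another quantile normalization (0.0385), with an intensity trend in the prior variance (0.0317) and with array weights (0.028), all adjusted p values from limma. In mutants with pilocarpine Ntrk2 read 11.89, 11.86 and 11.82, against 11.79, 11.66 and 11.75 in mutant controls. Here too the pilocarpine arrays lay above the control arrays, with a difference of 0.12 (95% interval 0.02 to 0.23, adjusted p = 0.229 from limma). The share of all probe sets with groups apart in this way was not counted, so this order adds no support to either difference. The responses in mutants and in het mice differed by -0.02 (95% interval -0.17 to 0.12, adjusted p = 0.918 from limma). The probe set does not tell full-length TrkB from its truncated forms, which lack the kinase domain.

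Ntrk3, the TrkC gene, read 10.80, 10.79 and 10.80 (log2) in het SE mice, against 10.63, 10.72 and 10.72 in het controls. The SE arrays lay above the control arrays, an order whose share over all probe sets was not counted. The difference of 0.10 (95% interval -0.01 to 0.22, adjusted p = 0.283 from limma) did not pass the threshold. In mutants its level was 10.71, 10.78 and 10.82 with pilocarpine, against 10.82, 10.73 and 10.62 in mutant controls. These arrays overlapped, with a difference of 0.05 (95% interval -0.07 to 0.17, adjusted p = 0.764 from limma).

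Ngfr, the p75 gene, read 7.54, 7.53 and 7.57 (log2) in het SE mice, against 7.70, 7.56 and 7.62 in het controls. The arrays of both groups overlapped, and the difference of -0.08 (95% interval -0.26 to 0.10, adjusted p = 0.639 from limma) did not pass the threshold. In mutants with pilocarpine it read 7.39, 7.40 and 7.73, against 7.53, 7.63 and 7.74 in mutant controls. Replicate 3 of the mutants with pilocarpine stood above the other 2 of its group and overlapped the controls, and the difference was -0.13 (95% interval -0.31 to 0.05, adjusted p = 0.521 from limma). In the adult brain p75 is best known from cholinergic neurons of the basal forebrain. The mean of 3 cholinergic markers stayed between 5.87 and 6.12 (log2) on all 12 arrays. This is below the array medians of 6.78 to 6.86, and RMA compresses changes of dim probe sets. A stable cholinergic content thus cannot be read from it.

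**Figure D2:**
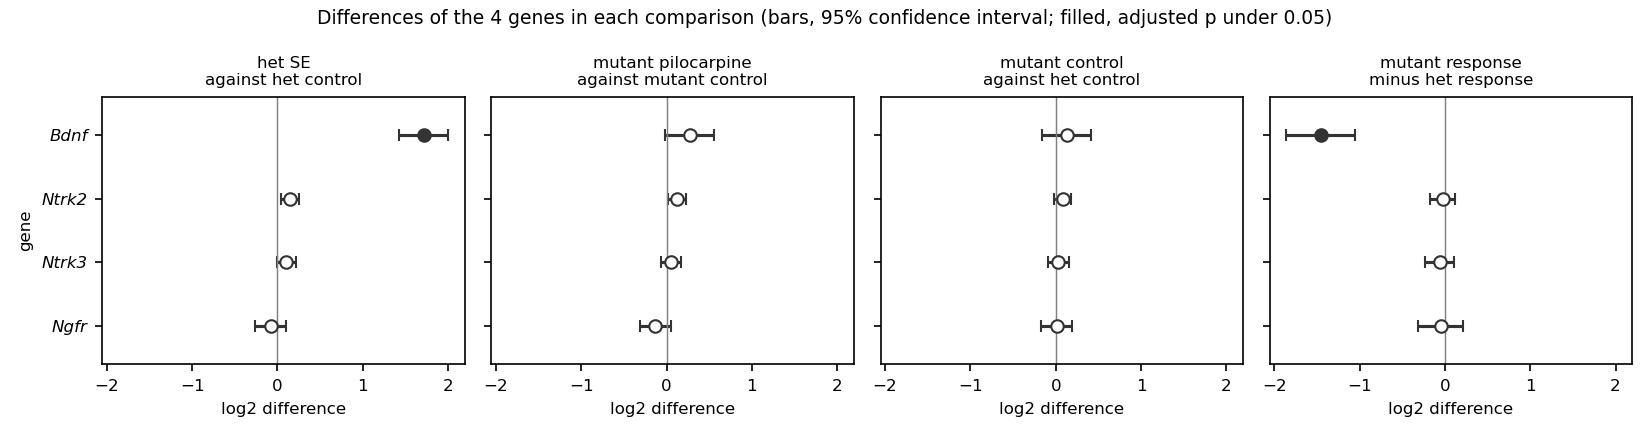
Log2 difference of Bdnf, Ntrk2, Ntrk3 and Ngfr (x axis) in the 4 comparisons, with the 95% confidence interval from limma as bars and calls at an adjusted p under 0.05 filled. Bdnf alone is filled, at 1.72 for SE in het mice and at -1.45 for the mutant minus the het response, while the receptor intervals all lie between -0.31 and 0.25.

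Between mutant controls and het controls the receptor genes differed by 0.08 for Ntrk2 (95% interval -0.02 to 0.18), by 0.03 for Ntrk3 (-0.09 to 0.15) and by 0.01 for Ngfr (-0.17 to 0.19). For the mutant minus the het response, Ntrk3 had -0.06 (95% interval -0.23 to 0.11) and Ngfr -0.05 (-0.31 to 0.21). None of these passed the threshold (adjusted p from 0.662 to 0.985 from limma). Ntf5, which encodes a further TrkB ligand, read between 6.40 and 6.52 (log2) in het SE mice, between 6.43 and 6.49 in het controls, between 6.35 and 6.53 in mutants with pilocarpine and between 6.39 and 6.52 in mutant controls. Its SE difference in het mice was 0.00 (95% interval -0.13 to 0.13, adjusted p = 0.985 from limma). All these levels are below the array medians of 6.78 to 6.86, and RMA compresses changes of dim probe sets. The narrow interval thus does not show that Ntf5 stayed unchanged.

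Across the 12 arrays, which include the groups compared above, the levels of Bdnf had a Pearson's r of 0.36 with Ntrk2, of 0.48 with Ntrk3 and of -0.23 with Ngfr. Ntrk2 and Ntrk3 had an r of 0.52, Ntrk2 and Ngfr of -0.57, and Ntrk3 and Ngfr of -0.37. Within groups, with each group's mean taken off, r was -0.47 for Bdnf with Ntrk2, -0.08 with Ntrk3 and 0.13 with Ngfr. It was 0.14 for Ntrk2 with Ntrk3, -0.42 for Ntrk2 with Ngfr and -0.17 for Ntrk3 with Ngfr. The signs of the Bdnf pairs over all arrays were thus not kept within groups, whereas the receptor pairs kept theirs. These values describe the arrays and are not a test. The 3 genes most like Bdnf over the 12 arrays were Nop53, a ribosome biogenesis factor (r = 0.992), Pcna, the sliding clamp of DNA polymerase (r = 0.991), and Dxo, an RNA decapping enzyme (r = 0.990). Nop53 read 11.79, 12.04 and 12.16 (log2) in het SE mice, against 11.17, 11.17 and 11.19 in het controls. Pcna read 11.75, 11.95 and 11.96 in het SE mice, against 11.10, 11.16 and 11.11 in het controls. Dxo read 9.34, 9.62 and 9.61 in het SE mice, against 8.65, 8.58 and 8.55 in het controls. Replicate 1 was the lowest of the het SE group in all 3 genes, an order shared with Bdnf that their choice by correlation over the same arrays favours. Their rises in het SE mice were 0.82, 0.77 and 0.93 for Nop53, Pcna and Dxo, smaller in size than the 1.72 of Bdnf. In mutants with pilocarpine their differences from mutant controls were 0.08, 0.10 and 0.09. Their choice by correlation also favours this pattern over the groups, which is therefore no separate result.

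**Figure D3:**
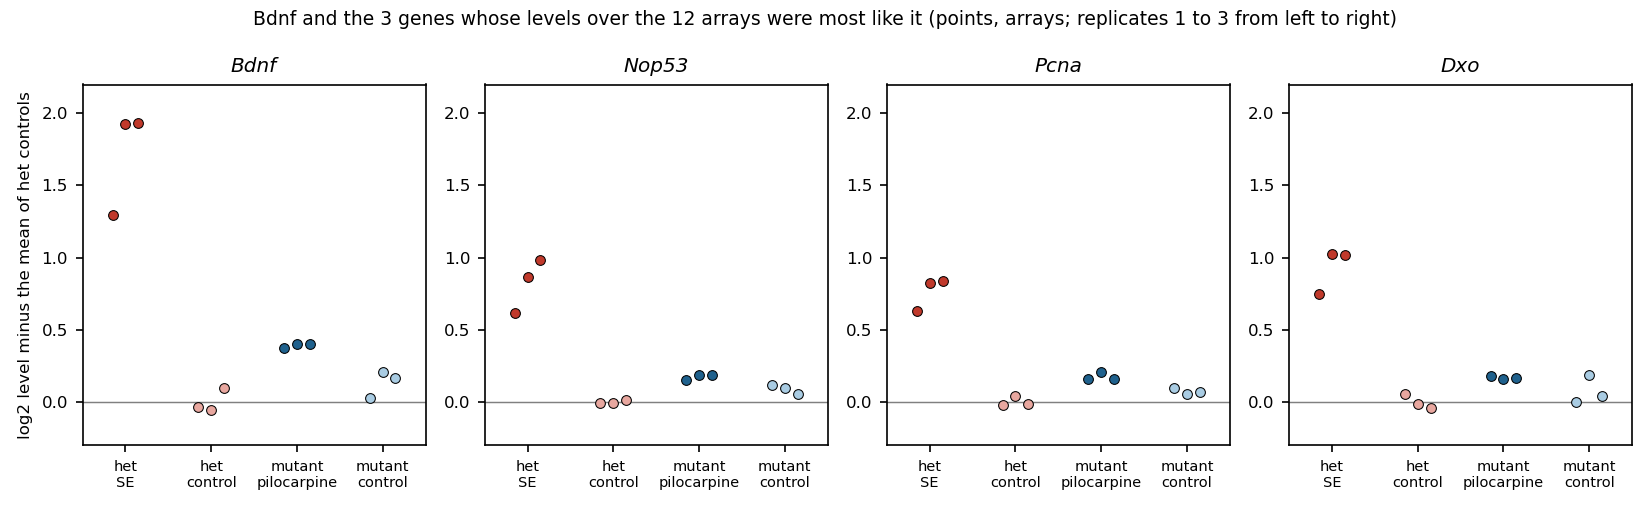
Level of Bdnf, Nop53, Pcna and Dxo on each array, as the difference from the mean of het controls (y axis, log2), in the 4 groups with replicates 1 to 3 from left to right. In each panel the 3 het SE arrays are highest, and replicate 1 is the lowest of them.

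Genes around the 4 members were taken from lists of the pathway, and each list is given by its counts. They are to be read beside the shares over all tested probe sets, 5.08% higher and 6.93% lower in het SE mice and 0.871% higher and 0.965% lower in mutants with pilocarpine. All lists were chosen with earlier results of these data known, so that a list share above these is no separate result. Sortilin is a coreceptor of p75 for proneurotrophins, and the first list holds its gene and those of its family. Of 5 measured, 1 rose in het SE mice, Sorcs2, which binds proBDNF with p75, by 0.18 (adjusted p = 0.00959 from limma). In mutants with pilocarpine 1 of 5 rose, Sorcs3, by 0.32 (adjusted p = 0.0483 from limma), a call that was lost in 14 of 23 alternatives. Leaving out any array other than replicate 1 of the mutant controls ended the call (adjusted p 0.0594 to 0.161 from limma). The median of the 5 genes was 0.14 in het SE mice and 0.08 in mutants with pilocarpine, beside medians of -0.03 and 0.00 over all tested probe sets. Of 13 measured partners and adaptors of p75, 1 fell in het SE mice, a share near the 6.93% over all probe sets. It was Traf6, a ubiquitin ligase that p75 recruits. It read 9.09, 9.06 and 9.03 (log2) in het SE mice, against 9.36, 9.28 and 9.33 in het controls, and fell by 0.27 (adjusted p = 0.00391 from limma). In mutants with pilocarpine 0 of the 13 were called.

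Among 24 measured adaptors and effectors of Trk receptors, 4 rose and 1 fell in het SE mice, and 1 rose in mutants with pilocarpine, beside 5.08% higher and 6.93% lower over all probe sets in het SE mice and 0.871% higher in mutants. The largest change was that of Irs2, an adaptor of the insulin receptor family that also takes part in TrkB signalling. It read 11.09, 11.15 and 11.12 (log2) in het SE mice, against 9.31, 9.43 and 9.44 in het controls. In mutants with pilocarpine Irs2 read 10.25, 10.25 and 10.15, against 9.46, 9.51 and 9.51 in mutant controls. None of these arrays overlapped with their controls, and the mutant arrays with pilocarpine lay between the controls and the het SE arrays. Irs2 rose by 1.73 in het SE mice (adjusted p = 1.45e-10 from limma) and by 0.73 in mutants (adjusted p = 5.54e-06 from limma), and the responses differed by -1.00 (95% interval -1.14 to -0.86, adjusted p = 2.47e-06 from limma).

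Shc4, a Shc family adaptor, read 7.73, 7.75 and 7.77 (log2) in het SE mice, against 6.95, 7.12 and 7.04 in het controls, and rose by 0.72 (adjusted p = 2.48e-06 from limma). In mutants its difference with pilocarpine was 0.06, and the responses differed by -0.66 (95% interval -0.82 to -0.49, adjusted p = 0.000376 from limma). Shc2, a neuronal Shc adaptor, rose by 0.28 in het SE mice (adjusted p = 0.00374 from limma). Rasgrf1, a guanine nucleotide exchange factor of Ras that was named after its values were seen, rose by 0.18 (adjusted p = 0.0346 from limma), and Irs1, a relative of Irs2, fell by 0.19 (adjusted p = 0.0408 from limma). The call of Rasgrf1 was lost in 8 of 23 alternatives, among them without replicate 1 or 3 of the het controls or any het SE array (adjusted p 0.0724 to 0.136 from limma). The call of Irs1 was lost in 14 of 23, among them without any het control, replicate 1 or 3 of the het SE group, or replicate 1 or 2 of the mutants with pilocarpine (adjusted p 0.054 to 0.147 from limma). The median of the 24 genes was 0.00 in het SE mice and 0.04 in mutants with pilocarpine.

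Of 15 measured modulators of Trk signalling, 3 rose in het SE mice, beside 5.08% over all probe sets, and 0 were called in mutants with pilocarpine. Spry2, a Sprouty protein that inhibits receptor tyrosine kinase signalling, read 10.74, 10.98 and 10.94 (log2) in het SE mice, against 9.48, 9.52 and 9.78 in het controls. In mutants it read 9.86, 9.78 and 10.02 with pilocarpine, against 9.32, 9.91 and 9.52 in mutant controls, and these arrays overlapped. Spry2 rose by 1.29 in het SE mice (adjusted p = 3.23e-05 from limma), and its responses differed by -0.99 (95% interval -1.39 to -0.59, adjusted p = 0.0104 from limma). Spry1, a second Sprouty gene, rose by 0.44 (adjusted p = 0.00166 from limma) and Cbl, a ubiquitin ligase of receptor tyrosine kinases, by 0.25 (adjusted p = 0.00189 from limma). The median of the 15 genes was 0.01 in het SE mice and 0.07 in mutants with pilocarpine.

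Of 16 measured genes of proneurotrophin processing and release, 3 rose in het SE mice, beside 5.08% over all probe sets, and 1 rose in mutants with pilocarpine, beside 0.871%. Pcsk1, the prohormone convertase of the regulated secretory pathway, read 10.85, 10.98 and 11.18 (log2) in het SE mice, against 9.64, 9.64 and 9.55 in het controls. In mutants it read 11.12, 11.02 and 10.64 with pilocarpine, against 10.03, 9.67 and 10.57 in mutant controls. The mutant controls were spread wide, and replicate 3 came close to the lowest array with pilocarpine. Pcsk1 rose by 1.39 in het SE mice (adjusted p = 0.000284 from limma) and by 0.84 in mutants (adjusted p = 0.0409 from limma). The call in mutants was lost in 13 of 23 alternatives, among them without replicate 1 or 2 of either mutant group, without any het control or without replicate 2 or 3 of the het SE group (adjusted p 0.0513 to 0.152 from limma). The responses differed by -0.55 (95% interval -1.12 to 0.01, adjusted p = 0.328 from limma), which did not pass the threshold.

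Scg2, a granin of dense-core vesicles, read 11.25, 11.47 and 11.33 (log2) in het SE mice, against 10.49, 10.48 and 10.51 in het controls, and rose by 0.86 (adjusted p = 1.49e-06 from limma). In mutants its difference with pilocarpine was 0.17, and the responses differed by -0.69 (95% interval -0.88 to -0.50, adjusted p = 0.000717 from limma). Plat, the tissue plasminogen activator that starts the cleavage of proBDNF by plasmin, rose by 0.82 in het SE mice (adjusted p = 0.000577 from limma), with a difference of 0.42 in mutants (adjusted p = 0.098 from limma). The median of the 16 genes was 0.05 in both responses. Of 25 measured genes of other neurotrophic factors and their receptors, 1 rose in het SE mice, a share no higher than the 5.08% over all probe sets, and 0 were called in mutants. It was Lif, a cytokine of the IL-6 family, which rose by 0.56 (adjusted p = 0.000889 from limma).

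Of 18 measured regulators of Bdnf transcription, 4 rose and 2 fell in het SE mice, beside 5.08% and 6.93% over all probe sets. In mutants with pilocarpine 4 rose, beside 0.871%. This list too was chosen with earlier results of these data known, so that its shares are no separate result. Npas4, an activity-induced transcription factor that binds Bdnf promoters, read 13.21, 12.91 and 13.06 (log2) in het SE mice, against 7.14, 7.58 and 7.18 in het controls. In mutants it read 11.44, 11.38 and 11.18 with pilocarpine, against 7.88, 7.63 and 7.59 in mutant controls. Replicate 1 of the het SE group, the lowest of its group for Bdnf, was the highest for Npas4. Npas4 rose by 5.76 in het SE mice (adjusted p = 2.14e-11 from limma) and by 3.64 in mutants (adjusted p = 1.89e-08 from limma), and the responses differed by -2.12 (95% interval -2.49 to -1.75, adjusted p = 1.43e-05 from limma).

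Crem, a CREB family gene that also encodes a repressor of CRE-driven transcription, rose by 0.65 in het SE mice (adjusted p = 1.49e-05 from limma) and by 0.45 in mutants (adjusted p = 0.00275 from limma). Bhlhe40, a basic helix-loop-helix repressor, rose by 0.41 in het SE mice (adjusted p = 0.00109 from limma) and by 0.47 in mutants (adjusted p = 0.00303 from limma). For neither did the difference between the responses pass the threshold (-0.20 with adjusted p = 0.26 for Crem and 0.06 with adjusted p = 0.826 for Bhlhe40, from limma). Srf read 10.16, 10.20 and 10.27 (log2) in het SE mice, 0.64 above het controls (adjusted p = 5.12e-06 from limma), and 8.90, 8.90 and 8.83 in mutants with pilocarpine, with a difference of -0.03 from mutant controls (adjusted p = 0.883 from limma). Hdac4, a class IIa histone deacetylase, rose in mutants by 0.28 (adjusted p = 0.0103 from limma). The 2 genes that fell in het SE mice, named after their values were seen, were Usf1, an E-box factor, by 0.31 (adjusted p = 0.0234 from limma), and Creb1, the CREB gene, by 0.16 (adjusted p = 0.0393 from limma). The call of Usf1 was lost without het control 2 or replicate 1 or 2 of the het SE group (adjusted p 0.0622 to 0.08 from limma), and that of Hdac4 when the fit held the mutant groups alone (adjusted p = 0.0798 from limma) and without replicate 1 or 2 of the mutants with pilocarpine (adjusted p 0.0515 and 0.0575 from limma). The call of Creb1 was lost in 13 of 23 alternatives, among them without any het array, mutant control 2 or replicate 1 or 2 of the mutants with pilocarpine (adjusted p 0.0501 to 0.133 from limma). The median of the 18 genes was 0.01 in het SE mice and 0.06 in mutants with pilocarpine.

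**Figure D4:**
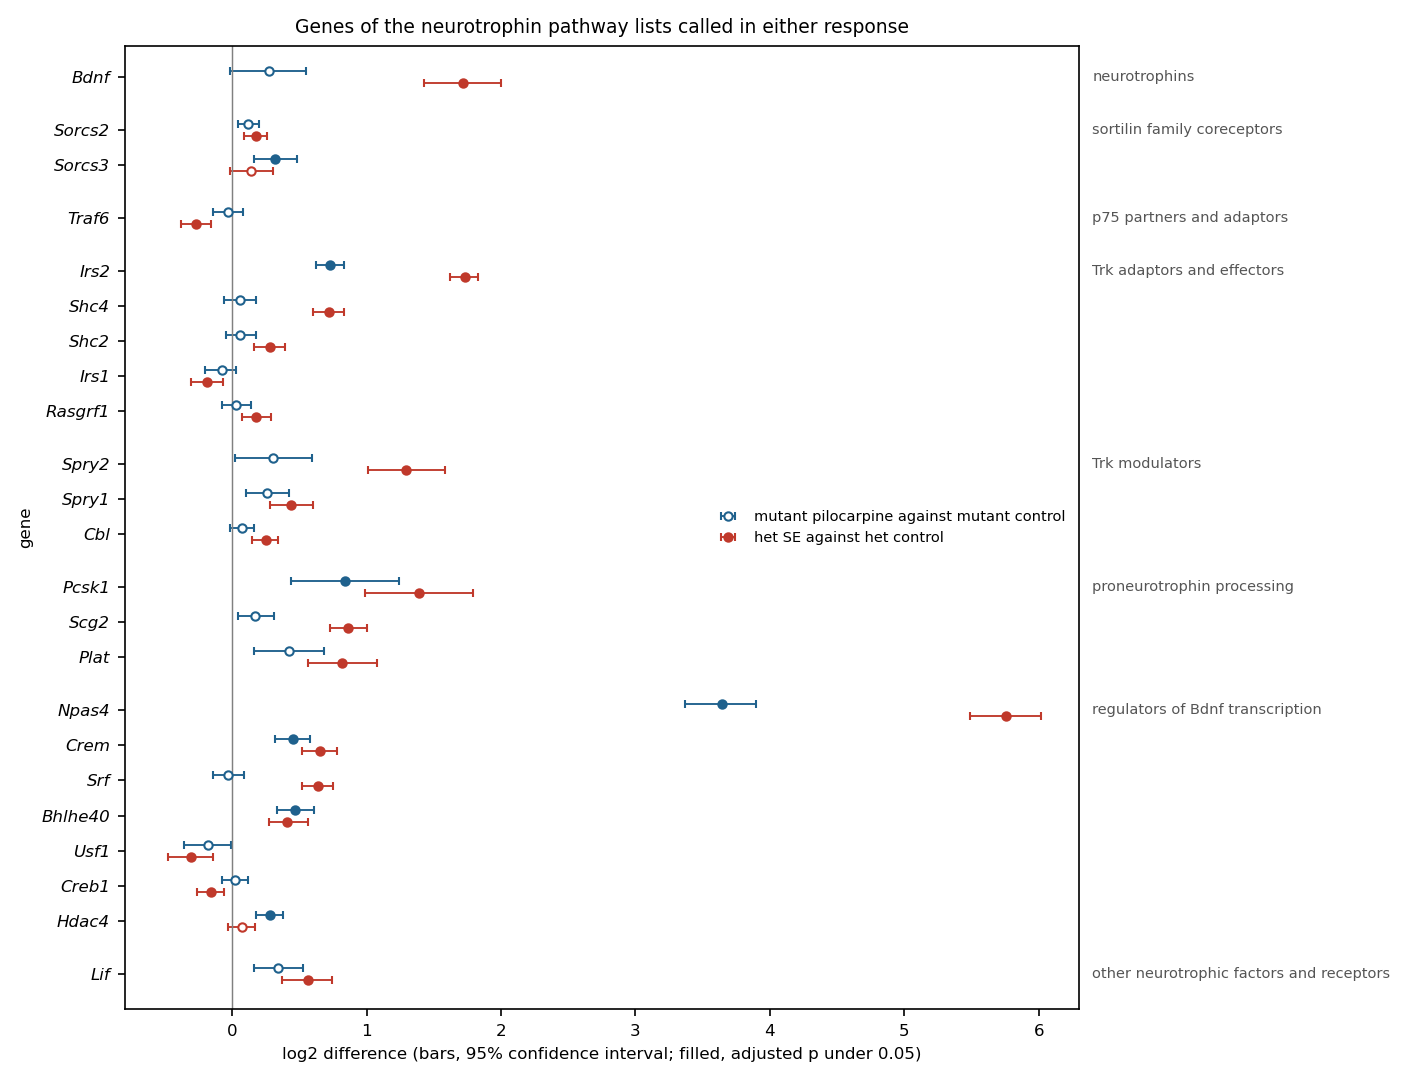
Log2 difference (x axis) of every pathway list gene called in either response, in mutants with pilocarpine against mutant controls and in het SE mice against het controls, with 95% confidence intervals from limma as bars and calls at an adjusted p under 0.05 filled. Npas4 (3.64 in mutants and 5.76 in het mice), Irs2, Pcsk1, Crem and Bhlhe40 are filled in both, whereas Bdnf, Shc4, Spry2 and Scg2 are filled for the het SE response alone.

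Bdnf is transcribed from several starts, and 7 of them are listed with a window of 250 bases before the start in the RefSeq promoter table (GRCm38.p6). These windows were searched on both strands for letters that some regulators of the list above or other activity-induced factors are known to bind. No letters were chosen for others of the list, Npas4 among them. The letters were the full CRE (TGACGTCA), its core (TGACG, which also lies within the full CRE), the E-box CACGTG, the AP-1 site TGANTCA, the EGR site GCGNGGGCG, and the CArG box bound by SRF. The CRE core was found in 1 of 7 windows and the AP-1 letters in 1 of 7, whereas the full CRE, the CArG box, the E-box and the EGR site were found in 0 of 7. Over all 32851 windows of the table, 17.8% hold the CRE core, 6.75% the AP-1 letters, 1.55% the full CRE, 1.47% the CArG box, 6.02% the E-box and 4.7% the EGR site. Both Bdnf windows with a match to the letters searched are shown, with the match in capitals. E-boxes other than CACGTG were not searched. The AP-1 match lies 152 to 146 bases before the start in the window at chr2:109676782-109677031. The CRE core, read on the minus strand, lies 35 to 31 bases before the start in the window at chr2:109692186-109692435. Both windows are on the plus strand of GRCm38.p6.
Bdnf window with the AP-1 letters: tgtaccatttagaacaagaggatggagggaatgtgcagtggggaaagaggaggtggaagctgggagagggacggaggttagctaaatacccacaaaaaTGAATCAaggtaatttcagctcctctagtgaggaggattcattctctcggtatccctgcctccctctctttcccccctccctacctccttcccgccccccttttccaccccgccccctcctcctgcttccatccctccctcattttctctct
Bdnf window with the CRE core: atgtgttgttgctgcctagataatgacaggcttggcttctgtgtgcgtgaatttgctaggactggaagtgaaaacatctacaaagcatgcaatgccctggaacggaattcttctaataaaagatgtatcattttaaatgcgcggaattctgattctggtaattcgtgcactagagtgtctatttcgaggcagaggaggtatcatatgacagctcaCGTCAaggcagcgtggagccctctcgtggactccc
The probe set sums transcripts of all starts, so that the rise of Bdnf in het SE mice cannot be assigned to either window. Of the receptor genes, Ntrk2 and Ngfr had 1 window each and held none of the letters, and Ntrk3 was not in the table. A match is a description of the sequence, and no match says only that these letters are not in the window.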

How the data were processed

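Each of 12 mice gave 1 array of hippocampal RNA. The values deposited by the authors are on a log2 scale and come from RMA in Affymetrix Expression Console, with background corrected, arrays quantile normalized and probes summarised per probe set. These steps compress changes of dim probe sets and bring the probes of the arrays to a common distribution before they are summarised. Differences are thus measured relative to the other probe sets. The summarised values still differed slightly between arrays, with medians of 6.78 to 6.86. The number of arrays limits the precision.

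Of 35556 probe sets, the platform annotation names a gene for 23410, of which 21789 have 1 gene and 1621 have several. limma 3.58.1 in R 4.3.3 was run with lmFit and eBayes on these 23410, with a mean for each of the 4 groups, all 12 arrays and no block. Benjamini-Hochberg adjustment ran over all of them. The comparisons were SE against control in het mice, pilocarpine against control in mutants, mutant against het among controls, and the mutant minus the het response. The procedure was tested on simulated data. Tables were read with pandas 2.3.3 in Python 3.11.15.

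Named were the members, Ntf5, Srf, from each list and comparison up to 4 called genes with the largest change, and the 3 genes with the highest correlation to a called member. Beyond this rule, Rasgrf1, Usf1, Creb1 and 6 cell type markers were named with their values known. The members and lists were chosen with earlier results of these data known. Alternatives covered normalization, the prior variance, dim probe sets, the probe sets and arrays in the fit, array weights, a replicate block, Xist as a covariate, the study's limits for strong changes and leaving out each array. Promoter windows are from RefSeq (GRCm38.p6).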

Additional observations from a re-analysis of the deposited data

Results flagged for a closer look

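For 7 of 121 measured genes of the pathway lists, the members among them, the response to pilocarpine in Srf mutants differed from the SE response in het mice by a test of the difference itself (adjusted p from limma), and all 7 had the smaller response in mutants. Among the members this was Bdnf, with a log2 difference of -1.45 (standard error 0.186, adjusted p = 0.000753). Among the pathway genes these were Irs2 (-1.00, standard error 0.0663, adjusted p = 2.47e-06), Shc4 (-0.66, standard error 0.0769, adjusted p = 0.000376), Spry2 (-0.99, standard error 0.185, adjusted p = 0.0104) and Scg2 (-0.69, standard error 0.0875, adjusted p = 0.000717). Among the regulators of Bdnf transcription these were Npas4 (-2.12, standard error 0.171, adjusted p = 1.43e-05) and Srf (-0.66, standard error 0.0739, adjusted p = 0.000236). Srf is the gene deleted in the mutants, so that its response there is measured on the altered gene itself. Whether the deletion or the absence of SE gave its smaller response was not tested. Over all tested probe sets 1.47% were called higher and 2.12% lower in this comparison. Loss of Srf and the absence of SE cannot be told apart in it. The lists were chosen with earlier results of these data known, so that their share is no separate result.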

How the results depend on the processing

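The rise of Bdnf in het SE mice was called in 23 of 23 alternatives (log2 difference 1.61 to 1.93), and its smaller response in mutants in 22 of 22 (-1.66 to -1.34). Its difference in mutants was 0.21 to 0.31 and was called only without replicate 1 of the het SE group. Members called in het SE mice were 2, with Ntrk2, under another quantile normalization, an intensity trend and array weights, and members called in mutants with pilocarpine were 0 to 1 when each array was left out. Values near 0 changed sign for Ngfr between controls (0.00 with array weights, -0.05 with Xist as a covariate, -0.04 to 0.06 leaving out each array) and, leaving out each array, for Ngfr in the mutant minus the het response (-0.16 to 0.01), Ntrk2 in the same (-0.06 to 0.00), Ntrk3 in mutants (-0.01 to 0.10) and Ntrk3 between controls (-0.02 to 0.09). Probe sets called in mutants with pilocarpine were 430 in the fit as reported, 246 over all probe sets, 161 with only the compared groups and 162 to 448 leaving out each array (162, 176 and 192 without replicate 2 or 1 of the mutants with pilocarpine and without mutant control 2). Those between controls were 28, and 11 over all probe sets, 9 with only the compared groups, 12 with Xist, 16 with gene means and 8 to 47 leaving out each array (47 without mutant control 3, and over 1.5 times from 28 for all arrays but replicate 2 of the mutants with pilocarpine). Those of the difference between responses were 840, and 535 to 986 leaving out each array (535 without replicate 1 of the mutants with pilocarpine, 553 without het control 3). The study's limits (adjusted p under 0.001 and 2-fold) left 155, 17, 0 and 95 in the 4 comparisons. Same-numbered arrays of different groups had an r of -0.31 to 0.32. Other pairs were not computed for comparison, so that this range cannot settle whether replicate numbers pair the mice. A replicate block changed no call of a member and gave 15 probe sets between controls. The share of calls that were higher moved with scaling: as reported, after centring on medians and after another quantile normalization it was 42.3, 51.9 and 42.2% in het SE mice, 47.4, 54.2 and 57.1% in mutants with pilocarpine, 32.1, 34.6 and 21.7% between controls and 41, 31 and 46.3% for the difference between responses. Of 1278 alternatives over single genes, 1175 kept their direction and side of the threshold.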
